A study of Mus musculus with 275 samples.

Results

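The proteasome subunit genes were taken as all array probes whose gene symbol begins with Psma, Psmb, Psmc, Psmd, Psme, Psmf or Psmg followed by a digit, leaving out the interferon-inducible subunits Psmb8 and Psmb9. This gave 65 probes of 43 genes, out of 25697 probes in all, of which 23978 carried a gene symbol. The mice came from 3 selections for catalepsy after haloperidol, a blocker of dopamine D2 receptors. Each selection was bred from a different founder population: F2 mice descended from C57BL/6J and DBA/2J, HS4 mice from a stock of C57BL/6J, DBA/2J, BALB/cJ and LP/J, and HS-CC mice from the founder strains of the Collaborative Cross. High animals belong to the line bred for a strong response and Low animals to the line bred for a weak one, with 41 F2 High and 42 F2 Low, 48 HS4 High and 48 HS4 Low, and 48 HS-CC High and 48 HS-CC Low animals. RNA from the striatum of each animal was hybridised to 1 Illumina bead array. There was a single High and a single Low line in each selection, so the spread between animals of a line does not measure the spread between independently bred lines, and animals of a line are related. The age of the animals, and whether those on the arrays had received haloperidol, are not given in the sources used here. In bulk tissue, fewer cells of a type and less RNA per cell cannot be told apart.

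The 26S proteasome is the cell's main machine for degrading proteins that carry ubiquitin. Its barrel, the 20S core, is built from rings of alpha subunits (Psma genes), which gate the entrance, and beta subunits (Psmb genes), of which Psmb5, Psmb6 and Psmb7 carry the proteolytic sites. The 19S regulatory particle caps the barrel. Its ATPases (Psmc genes) unfold and thread the substrate, and its non-ATPase subunits (Psmd genes) bind the ubiquitin chain and remove it. Other activators (Psme genes) can cap the core in place of the 19S particle, and dedicated chaperones (Psmg genes, and Psmd5, Psmd9 and Psmd10 for the 19S base) help to assemble the complexes. In neurons the proteasome is known for its part in synaptic protein turnover. The 20S alpha group held 9 probes of 7 genes, the 20S beta group 13 probes of 8 genes, the 19S ATPases 7 probes of 6 genes, the 19S non-ATPase subunits 16 probes of 10 genes, the 19S assembly factors 7 probes of 3 genes, the activators 6 probes of 4 genes and the Psmg chaperones 4 probes of 3 genes. The remaining 3 probes belong to Psmc3ip, which acts in meiotic recombination, and Psme3ip1. Both fit the naming rule, but they encode partners of proteasome proteins and not subunits.

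Array quality differed between the selections. The lowest mean correlation of an array with the others of its selection was 0.912 for F2, 0.574 for HS4 and 0.684 for HS-CC. After repeated removal of outlying arrays, 35 High and 38 Low arrays were left in F2, 39 High and 36 Low in HS4, and 42 High and 45 Low in HS-CC. All 8 probes of the spiny projection neuron markers, which define the striatum, were expressed in each selection. On the HS4 arrays the sex given in the labels matched the Y-linked transcript Eif2s3y on 41 of 96 arrays. HS4 High and Low arrays, as labelled, may then not be those of the bred lines. Whether the line labels are affected was not tested, and every HS4 difference holds for the labels only. Each selection had been normalized by itself, and its levels are not set against those of another.

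Most members were measured well above background. A probe counted as expressed when it exceeded the upper range of olfactory, vomeronasal and taste receptor probes on at least 25 percent of the arrays of a selection. By this rule F2 had 61 of the 65 probes expressed, HS4 had 58 and HS-CC 60, and 57 were expressed in every selection. The only probe of Psma1, which encodes an alpha subunit, was above background on no array of any selection. A probe each of Psmd11 and Psmd5 was likewise above background on no array, and a probe of Psma3 on 2 HS-CC arrays and no other. Psmd11, Psmd5 and Psma3 each had another probe that was expressed. Single probes of Psma6, Psmb2 and Psme4 were expressed in F2 and HS-CC but not in HS4, and a probe of Psmd9 in F2 and HS4 but not in HS-CC. Over the expressed probes the line medians, on the intensity scale of the deposited values (treated here as log2, although a variance-stabilised scale is possible), ran between 8.97 and 13.80 in F2 High, against 8.98 and 13.81 in F2 Low. They ran between 9.19 and 14.38 in HS4 High, against 9.20 and 14.43 in HS4 Low, and between 9.22 and 14.21 in HS-CC High, against 9.21 and 14.25 in HS-CC Low. The number of probes above background on every array was 51 in F2 High against 50 in F2 Low, 16 in HS4 High against 15 in HS4 Low, and 21 in HS-CC High against 53 in HS-CC Low. The poorest array had 11 percent of all probes above background in HS-CC High, against 45.2 percent in HS-CC Low.

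The first comparison asked whether the level of a subunit differed between the lines bred for High and Low response. Few members passed the test. At a false discovery rate of 0.1 in limma, adjusted over all expressed probes of the selection, F2 had 1 of 61 member probes called, HS4 had 0 of 58 and HS-CC had 3 of 60. The share of all expressed probes called was 0.922 percent for F2, 0.046 percent for HS4 and 3.41 percent for HS-CC. The called member of F2 was higher in High, as were 0.353 percent of all probes there. In HS-CC 1 called member was higher and 2 were lower, beside 1.19 and 2.22 percent of all probes. At an unadjusted p under 0.05 the members numbered 7 for F2, 2 for HS4 and 12 for HS-CC, beside 8.76, 3.22 and 12.3 percent of all probes. With the outlying arrays left out, the same test called 1, 1 and 6 members, beside 1.38, 0.651 and 4.29 percent of all probes. The median High minus Low difference over the expressed members was 0.011 for F2, −0.023 for HS4 and −0.014 for HS-CC on the log2 scale, beside −0.00073, −0.0092 and −0.0033 over all expressed probes. Differences under 0.1 in size made up 58 of 61, 45 of 58 and 46 of 60 members. In no selection did the arrays of the lines separate completely for any member probe, but this was not counted over all expressed probes. The next smallest p-values belonged to subunits that missed the threshold. Psmd12, which encodes the lid subunit Rpn5, had a difference of −0.17 (SE 0.071, adjusted p = 0.25) in HS-CC. On the arrays labelled HS4, Psmb1, a structural beta subunit, had −0.10 (SE 0.065) and Psma2, an alpha subunit, −0.046 (SE 0.029), both with an adjusted p of 0.99. Without the 4 arrays that outlie in a single pass these were −0.046 and −0.025.

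**Figure D1:**
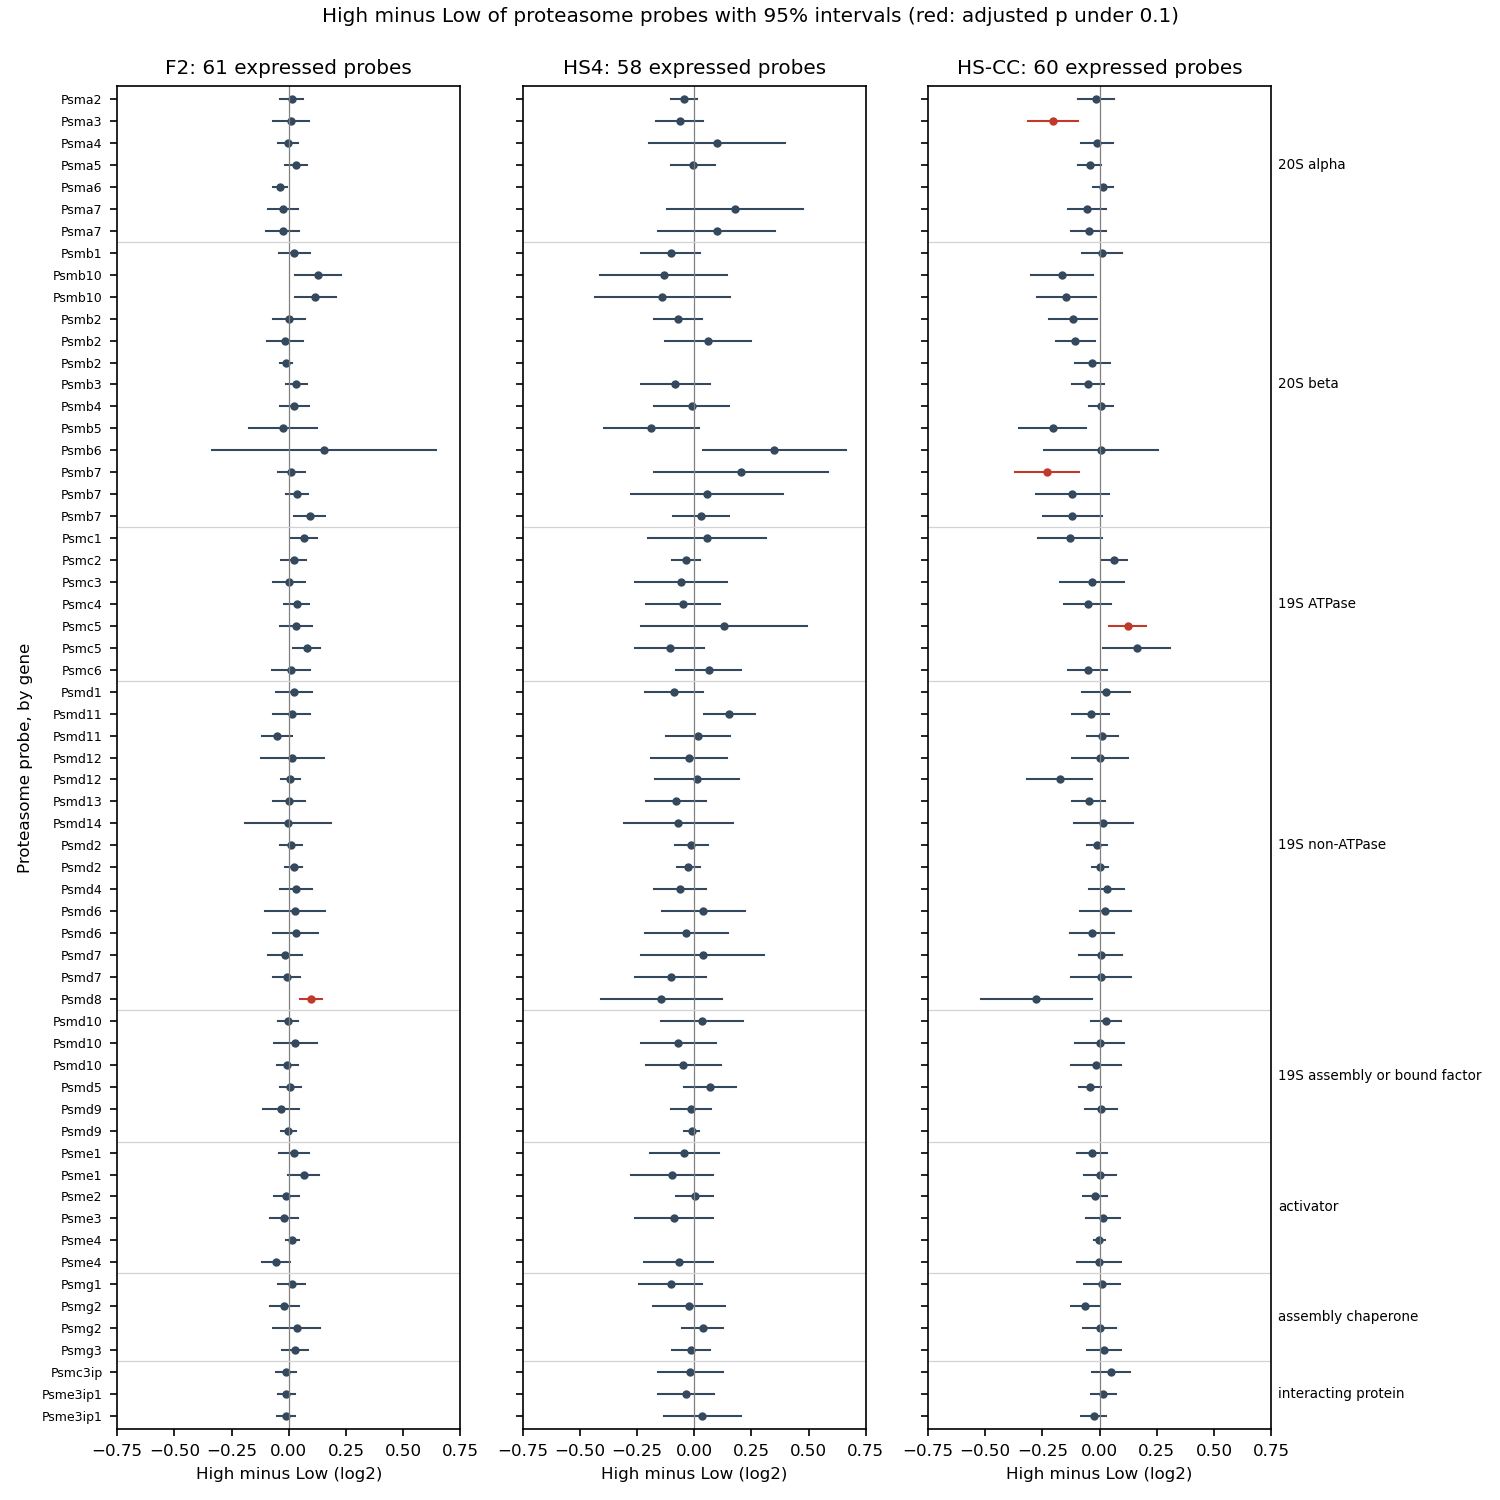
High minus Low (log2) of every expressed proteasome probe in each selection, grouped by subcomplex, with points for estimates, bars for 95% intervals and red for an adjusted p under 0.1. The called probes are Psmd8 in F2 and Psma3, Psmb7 and Psmc5 in HS-CC, and the widest interval in F2 is that of Psmb6 (−0.34 to 0.64).

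Of the 19S non-ATPase genes, Psmd8 was the only member called in F2. It encodes the lid subunit Rpn12. Its lowest, median and highest levels were 11.09, 11.40 and 11.65 in F2 High, against 11.07, 11.31 and 11.57 in F2 Low. The lines overlapped, but 33 of the 41 High arrays lay above the Low median, and 6 of the 42 Low arrays above the High median. The difference was 0.098 (SE 0.024, 95% interval 0.050 to 0.15, adjusted p = 0.026). The same probe behaved otherwise in HS-CC, where it ran 9.09, 10.24 and 11.53 in High, against 9.51, 10.65 and 11.80 in Low. That difference of −0.28 (SE 0.12, adjusted p = 0.30) was not called, and the spread behind it was large: after outlying arrays were left out, the SD over the arrays of both lines was 0.60 in HS-CC but 0.35 in HS4 and 0.11 in F2. On the arrays labelled HS4, Psmd8 had a difference of −0.14 (SE 0.13, adjusted p = 0.99).

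The called members of HS-CC belonged to the 20S core and the 19S ATPases. Psma3, which encodes the alpha 7 subunit of the outer ring, ran 12.90, 14.09 and 14.62 in High, against 13.73, 14.25 and 14.69 in Low. Of the 48 High arrays 14 lay above the Low median, and of the 48 Low arrays 40 lay above the High median. Psma3 fell by 0.20 in HS-CC High (SE 0.056, 95% interval −0.31 to −0.094, adjusted p = 0.024). In F2 its difference was 0.010 (SE 0.040), and on the arrays labelled HS4 it was −0.063 (SE 0.052). Neither was called.

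Psmb7 encodes the beta 2 subunit, which carries the trypsin-like site. Its probe ILMN_1221340 ran 11.80, 12.76 and 13.39 in HS-CC High, against 10.96, 13.06 and 13.44 in HS-CC Low, with 10 of 48 High arrays above the Low median and 40 of 48 Low arrays above the High median. It fell by 0.23 in High (SE 0.071, 95% interval −0.37 to −0.091, adjusted p = 0.060). The other probes of the gene, ILMN_1233153 and ILMN_2836147, had differences of −0.12 (SE 0.080, adjusted p = 0.60) and −0.12 (SE 0.065, adjusted p = 0.48). Across HS-CC animals the called probe correlated with the other probes only weakly (r = 0.16 and 0.037, n = 87). Without the 1 HS-CC High array that outlies in a single pass, their differences were −0.049 (SE 0.040) and −0.070 (SE 0.044), while the called probe kept −0.22 (SE 0.071). In F2 the called probe had 0.011 (SE 0.030), and on the arrays labelled HS4 it had 0.21 (SE 0.19, adjusted p = 0.99).

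Psmc5, which encodes the ATPase Rpt6, was the member called in the opposite direction. Probe ILMN_1220632 ran 11.20, 12.23 and 12.61 in HS-CC High, against 11.54, 12.04 and 12.53 in HS-CC Low. Of the 48 High arrays 40 lay above the Low median, and of the 48 Low arrays 8 lay above the High median. The difference was 0.12 (SE 0.041, 95% interval 0.043 to 0.20, adjusted p = 0.095), close to the threshold. It was not called when every probe of the array was tested, with an intensity trend or with measured sex as a term. The same probe had 0.13 (SE 0.18, adjusted p = 0.99) on the arrays labelled HS4. The other probe of Psmc5, ILMN_1251877, had a difference of 0.16 (SE 0.074, adjusted p = 0.33) in HS-CC. That probe also had a difference of 0.078 (SE 0.030, adjusted p = 0.35) in F2 and of −0.11 (SE 0.076, adjusted p = 0.99) on the arrays labelled HS4.

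**Figure D2:**
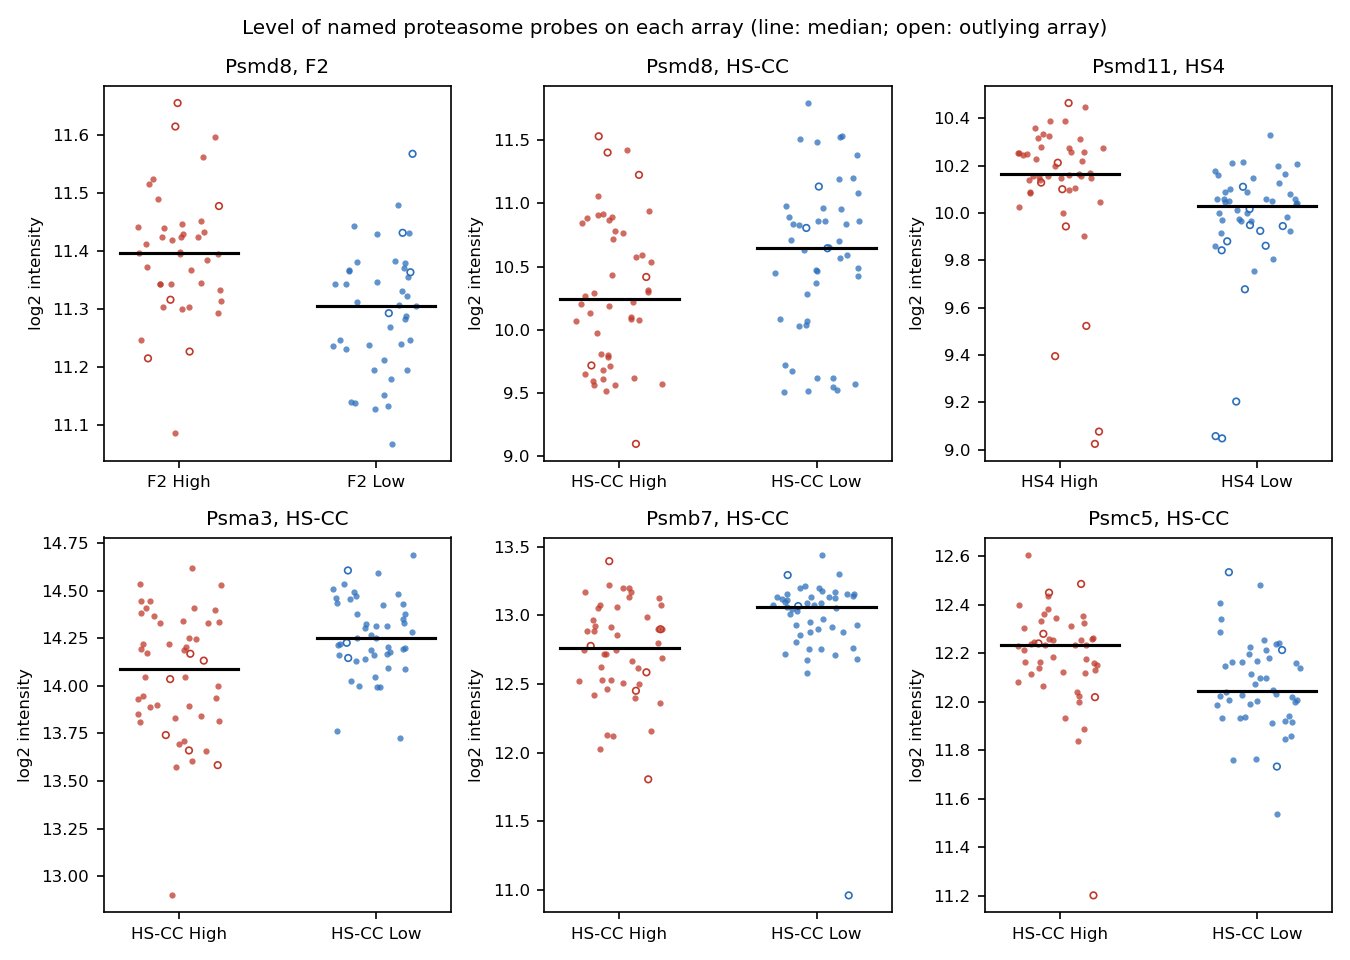
Level (log2 intensity) of Psmd8 in F2 and HS-CC, Psmd11 in HS4 and Psma3, Psmb7 and Psmc5 in HS-CC, with 1 point per array, High in red left of Low in blue, lines at the medians and open circles for outlying arrays. The lines overlap in every panel, and Psmd8 spreads from 9.09 to 11.80 in HS-CC but from 11.07 to 11.65 in F2.

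Whether a member was called in HS4 turned on the outlying arrays. Psmd11, which encodes the lid subunit Rpn6, had the smallest p of the members there. It ran 9.03, 10.16 and 10.46 on arrays labelled HS4 High, against 9.05, 10.03 and 10.33 on arrays labelled HS4 Low, with 40 of 48 High arrays above the Low median and 7 of 48 Low arrays above the High median. With all arrays the difference was 0.15 (SE 0.056, adjusted p = 0.99). With the outlying arrays left out it was 0.15 (SE 0.027, adjusted p = 0.00035), so the estimate moved little and its error shrank. Another probe of Psmd11, ILMN_2888116, had a difference of 0.016 (SE 0.071) on the arrays labelled HS4, with all of them kept. Probe ILMN_1214057 had 0.012 (SE 0.041) in F2 and −0.038 (SE 0.041) in HS-CC, also with all arrays.

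Among the catalytic subunits, Psmb5 (beta 5, chymotrypsin-like) missed the threshold in HS-CC. It ran 9.32, 10.54 and 11.74 in High, against 9.96, 10.73 and 11.37 in Low, a difference of −0.21 (SE 0.073, adjusted p = 0.14). It was called there when limma weighted the arrays by quality (adjusted p = 0.052). The share of all probes called with these weights is not given here. On the arrays labelled HS4 its difference was −0.19 (SE 0.10), or −0.11 (SE 0.072) without the 4 outlying arrays, and in F2 it was −0.024 (SE 0.075). Psmb6 (beta 1, caspase-like) had differences of 0.15 (SE 0.25) in F2 mice, 0.35 (SE 0.16, adjusted p = 0.99) on the arrays labelled HS4 and 0.0059 (SE 0.12) in HS-CC, with 95% intervals of −0.34 to 0.64, 0.037 to 0.66 and −0.24 to 0.25. Psmb6 ran 11.33, 13.32 and 14.15 on arrays labelled HS4 High, against 9.95, 12.91 and 14.09 on arrays labelled HS4 Low, and the lines overlapped over most of that range. Of Psmb7, probe ILMN_2836147 had the second smallest p of the members in F2, with 0.092 (SE 0.034, adjusted p = 0.33). In the 20S beta group, limma gave an unadjusted p under 0.05 for 3 of 13 probes in F2 and 1 of 12 in HS4. In HS-CC it did so for 6 of 13. Among all expressed probes the shares were 8.76, 3.22 and 12.3 percent. The group medians of High minus Low, with all arrays kept, were 0.025, −0.040 and −0.12. These counts and medians are not given without the outlying arrays. Probes ILMN_1233153 and ILMN_2836147 of Psmb7 belong to this group. As given above, their HS-CC differences shrank without the High array that outlies in a single pass. The 13 probes belong to 8 genes. Of the other groups in HS-CC, the 19S ATPases had 3 of 7 probes, the 19S non-ATPase subunits 2 of 15 and the 20S alpha group 1 of 7. The activators, Psmg chaperones, 19S assembly factors and partner genes had 0.

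Psmb10, the inducible subunit that can take the place of Psmb7, had opposite signs in F2 and HS-CC. Its probes ILMN_2757870 and ILMN_2914843 had differences of 0.13 (SE 0.051, adjusted p = 0.39) and 0.12 (SE 0.045, adjusted p = 0.35) in F2, and of −0.16 (SE 0.069, adjusted p = 0.26) and −0.15 (SE 0.065, adjusted p = 0.31) in HS-CC. On the arrays labelled HS4 the differences were −0.13 (SE 0.14) and −0.14 (SE 0.15). None was called. Probe ILMN_2757870 ran 9.80, 10.30 and 10.98 in F2 High, against 9.73, 10.20 and 10.66 in F2 Low, and 9.15, 10.95 and 11.40 in HS-CC High, against 10.41, 11.03 and 11.88 in HS-CC Low. In F2 the level of Psmb10 varied with the tissue markers: over 73 arrays it correlated at r = 0.76 (rho 0.72) with the mean of the cortical glutamatergic neuron markers and at −0.72 (rho −0.70) with that of the spiny projection neuron markers. The 5 expressed probes of the cortical list (Slc17a7, Neurod2 and others) had a median High minus Low of 0.075 in F2 with 0 called, and the 8 of the spiny neuron list −0.056 with 0 called, at the same rule. The part of tissue composition in the Psmb10 values was not tested.

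No activator was called with all arrays weighted equally. Psme1 and Psme2, the subunits of the PA28 cap, had differences of 0.023 (SE 0.034) and 0.065 (SE 0.034) for the probes of Psme1 and −0.011 (SE 0.028) for Psme2 in F2. The largest of the 6 activator differences in HS-CC was −0.032 (SE 0.033), for a probe of Psme1. Psme3, the nuclear PA28 gamma, had −0.022 (SE 0.030) in F2, −0.089 (SE 0.086) on the arrays labelled HS4 and 0.014 (SE 0.037) in HS-CC. No Psmg chaperone or 19S assembly factor passed the threshold in that fit either. In other fits some did: a probe of Psme1 was called in F2 with array weights (0.092, adjusted p = 0.0999 in limma). Psmd5, the 19S assembly factor, was called in HS-CC with outlying arrays left out (−0.064, adjusted p = 0.064) and with array weights (−0.062, adjusted p = 0.052). Without the outlying arrays 4.29 percent of all HS-CC probes were called. The shares called with array weights are not given here, so the weighted calls cannot be weighed against all probes.

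A second comparison asked whether the difference between lines itself differed between the selections. In a single fit of all arrays after quantile normalization across them, 0 of 57 member probes was called for F2 minus HS-CC, F2 minus HS4 or HS4 minus HS-CC, where 1.04, 0.0429 and 0.829 percent of the 13994 probes were called by limma. At an unadjusted p under 0.05 the members numbered 5, 0 and 7 of 57, beside 6.64, 4.59 and 7.4 percent of all probes. The smallest adjusted p of a member was 0.21, for Psma3 in F2 minus HS-CC, with a High minus Low of 0.0098 in F2 and −0.21 in HS-CC. Without the outlying arrays, the same fit called 2 members for F2 minus HS-CC and 3 for HS4 minus HS-CC, beside 4.27 and 2.14 percent of all probes, and 0 for F2 minus HS4, beside 0.0858 percent. These were probes of Psmb7, Psmd8 and Psmc5. Probe ILMN_1220632 of Psmc5 then had −0.027 on the HS4 arrays, against 0.12 with all of them, so its direction there turned. Of the 57 probes expressed everywhere, 3 were higher in High in all 3 selections and 5 were lower in all, which is 14 percent, beside 27.5 percent of all 13994.

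Genes around the proteasome were described by the lists of ubiquitin-activating enzymes, ubiquitin receptors and deubiquitinases, assembly and regulatory factors, transcription factors, the p97 segregase, cytosolic chaperones, and Psmb8 and Psmb9. The lists were chosen with earlier results of these data known. Expressed probes numbered 40 for F2, 39 for HS4 and 36 for HS-CC. In F2 1 gene was called higher, beside 0.353 percent of all probes, and 2 were called lower in HS-CC, beside 2.22 percent. HS4 had 0 calls by limma, beside 0.046 percent. At an unadjusted p under 0.05 in limma the listed probes numbered 6 for F2, 2 for HS4 and 4 for HS-CC. Of all probes 8.76, 3.22 and 12.3 percent did so. Nfyb, which encodes the histone-fold B subunit of the CCAAT-binding factor NF-Y, ran 9.10, 10.3 and 10.88 in HS-CC High, against 10.1, 10.5 and 10.83 in HS-CC Low, a fall of 0.23 (SE 0.052, adjusted p = 0.0041). Psmb9, the inducible beta 1 subunit, ran 9.08, 9.26 and 9.48 in HS-CC High, against 9.14, 9.35 and 9.89 in HS-CC Low. It fell by 0.087 (SE 0.022, adjusted p = 0.012 in limma) in High. These levels are near the floor: the lowest member median in HS-CC High was 9.22, for a Psma6 probe above background on 37 of 96 HS-CC arrays. Bag1, a nucleotide exchange factor that links Hsp70 chaperones to the proteasome, ran 12.67, 13.14 and 13.51 in F2 High, against 12.54, 13.02 and 13.53 in F2 Low, and was higher by 0.12 (SE 0.035, adjusted p = 0.096) in High. The lines overlapped for each of these genes. Nfe2l1 and Nfe2l2, whose products drive proteasome genes, were not among the genes called. Of the other lists, Uchl5, a deubiquitinase bound to the 19S particle, had the smallest p of the receptors in F2, with 0.078 (SE 0.034, adjusted p = 0.45). Hsp90aa1 had the smallest p of the chaperones on the arrays labelled HS4, with 0.26 (SE 0.12, adjusted p = 0.99).

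The third question was how far subunit genes varied together from animal to animal. A single probe per gene was used, line means were subtracted and outlying arrays left out, which left 73 F2, 75 HS4 and 87 HS-CC arrays. The correlations between proteasome genes centred near 0. The median Pearson r over pairs was 0.027 for 861 pairs of F2, 0.049 for 820 of HS4 and 0.028 for 861 of HS-CC, beside 0.0051, 0.00077 and 0.00049 over pairs of all expressed genes. The jackknife error over arrays was 0.022, 0.023 and 0.018. Pairs above r = 0.5 made up 0.929, 6.95 and 2.32 percent of the member pairs, beside 0.856, 2.32 and 0.729 percent of all gene pairs. Pairs below −0.5 made up 0.232, 4.15 and 1.39 percent, beside 0.604, 1.92 and 0.454 percent. The negative shares turned with the arrays kept. With all arrays, pairs below −0.5 made up 4.76 percent of member pairs for F2, 5.24 percent for HS4 and 1.86 percent for HS-CC, beside 2.41, 7.01 and 2.79 percent of all gene pairs. Pairs above 0.5 were then 6.97, 18.4 and 5.92 percent, beside 2.87, 10.8 and 3.28 percent. With all arrays kept the HS4 median was 0.12 and the HS-CC median 0.048, beside 0.0484 and 0.0225 over pairs of all expressed genes. Within the lines the median was 0.044 in F2 High against 0.015 in F2 Low, 0.056 in HS4 High against 0.042 in HS4 Low, and 0.028 in HS-CC High against 0.033 in HS-CC Low.

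**Figure D3:**
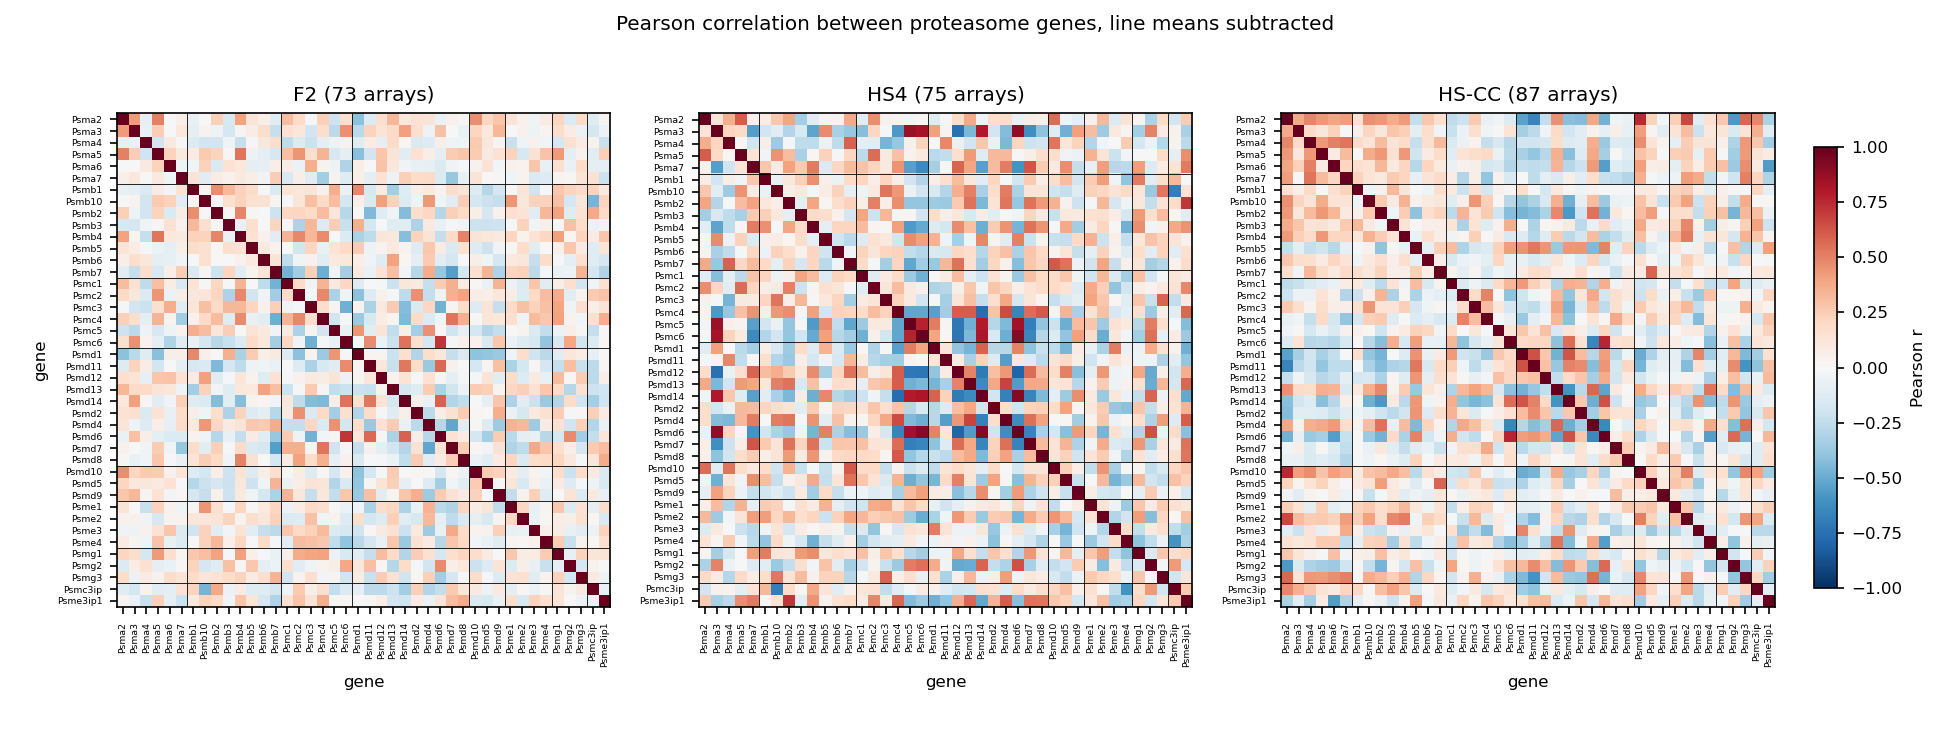
Pearson r between proteasome genes in F2 (73 arrays), HS4 (75) and HS-CC (87), line means subtracted and outlying arrays left out, with genes ordered by subcomplex between the black lines. Psmc6, Psmd6 and Psmd14 form red cells in all panels, and HS4 has the most cells of strong colour in either direction.

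The 20S core genes had a median r of 0.035 for F2, 0.053 for HS4 and 0.17 for HS-CC, and the genes of the 19S particle 0.0047, 0.042 and 0.094. Between the core and the 19S particle the medians were 0.024, 0.064 and −0.068. Single genes differed more. In F2 the mean r with the other members was highest for Psmb4 (0.13), Psmg1 (0.12) and Psma5 (0.11) and lowest for Psmd1 (−0.059), Psmd14 (−0.048) and Psmb7 (−0.048). In HS4 it was highest for Psma5 (0.11), Psme3ip1 (0.11) and Psmc2 (0.10) and lowest for Psme4 (−0.13), Psmc6 (−0.069) and Psme3 (−0.065). In HS-CC it was highest for Psme2 (0.11), Psma2 (0.098) and Psmb7 (0.087) and lowest for Psmd14 (−0.070), Psme3 (−0.065) and Psmd11 (−0.062). The Psmb7 probe used, ILMN_1221340, was thus among the lowest in F2 and among the highest in HS-CC. Its r with probe ILMN_2836147 of the same gene was −0.43 in F2 and 0.037 in HS-CC, so these ranks hold for that probe only.

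Of the 820 pairs measured in every selection, 3 exceeded r = 0.5 in all of them, and 11 exceeded 0.3. The 3 pairs joined Psmc6, the ATPase Rpt4, Psmd6, the lid subunit Rpn7, and Psmd14, the deubiquitinase Rpn11. These are pairs picked for their r, and no p is given for them. Psmc6 and Psmd6 had r = 0.71 for F2 (rho 0.70), 0.91 for HS4 (rho 0.91) and 0.76 for HS-CC (rho 0.78), and without the 2 farthest arrays 0.73, 0.89 and 0.76. Psmd14 and Psmd6 had r = 0.59 (rho 0.46), 0.92 (rho 0.88) and 0.64 (rho 0.63), and without the 2 farthest arrays 0.52, 0.90 and 0.62. Psmc6 and Psmd14 had r = 0.54 (rho 0.50), 0.81 (rho 0.79) and 0.56 (rho 0.52). Within the lines, Psmc6 and Psmd6 had r = 0.67 in F2 High against 0.77 in F2 Low, 0.94 in HS4 High against 0.87 in HS4 Low, and 0.74 in HS-CC High against 0.78 in HS-CC Low. With all arrays kept, the HS4 values changed to 0.51 for Psmc6 with Psmd6, 0.17 for Psmd14 with Psmd6 and −0.033 for Psmc6 with Psmd14. On the HS4 arrays used, Psmd6 also correlated at r = 0.60 (rho 0.62) with the percentage of all probes above background, where the value was −0.14 in F2 and −0.090 in HS-CC. The part of array quality in the HS4 correlations was not tested. The leading correlates of Psmd6 lay outside the proteasome, such as Ndufb4 (r = 0.83) and Mxi1 (0.82) in F2, Dld (0.96) and Chmp5 (0.96) in HS4 and Mxi1 (0.88) and Hnrnpa2b1 (0.87) in HS-CC.

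**Figure D4:**
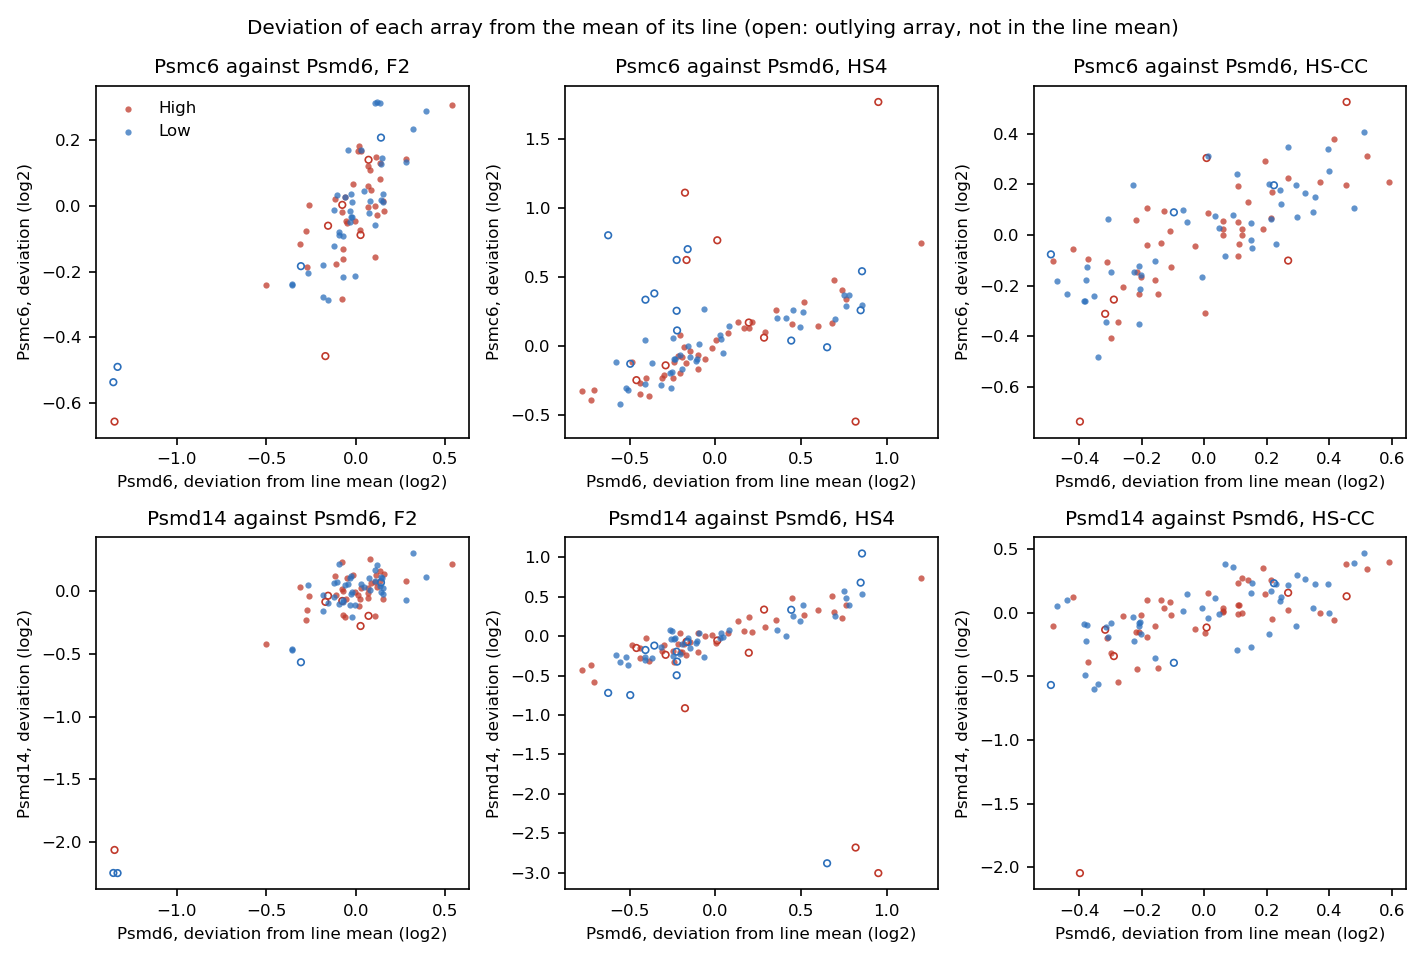
Deviation from the line mean (log2) of Psmc6 (top) and Psmd14 (bottom) against that of Psmd6 in each selection, with 1 point per array, High in red, Low in blue and open circles for outlying arrays. Filled points rise together in every panel (r from 0.59 to 0.92), while open circles of HS4 lie away from them.

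The promoters of these covarying genes are shown because the genes moved together although Psmd14 lies on another chromosome. Each runs from 250 bases before to 50 bases after the annotated start in RefSeq (GRCm38.p6), 5′ to 3′ on the gene's strand: Psmc6 at chr14:45329574-45329873 (plus strand), Psmd6 at chr14:14120896-14121195 (minus strand) and Psmd14 at chr2:61711444-61711743 (plus strand). Capitals mark matches on either strand to TGACNNNGC, the core of the element bound by Nfe2l1 and Nfe2l2, or to CCAAT, the NF-Y box. No match to TGACNNNGC overlapped one to CCAAT, while CCAAT and its reverse complement overlap at a site in Psmd14.
Psmc6: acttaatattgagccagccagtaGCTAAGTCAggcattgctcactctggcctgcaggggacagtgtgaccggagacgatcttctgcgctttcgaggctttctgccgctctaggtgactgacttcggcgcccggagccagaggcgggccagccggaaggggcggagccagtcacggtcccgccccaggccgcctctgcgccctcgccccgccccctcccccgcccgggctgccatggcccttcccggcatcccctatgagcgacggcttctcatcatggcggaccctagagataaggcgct
Psmd6: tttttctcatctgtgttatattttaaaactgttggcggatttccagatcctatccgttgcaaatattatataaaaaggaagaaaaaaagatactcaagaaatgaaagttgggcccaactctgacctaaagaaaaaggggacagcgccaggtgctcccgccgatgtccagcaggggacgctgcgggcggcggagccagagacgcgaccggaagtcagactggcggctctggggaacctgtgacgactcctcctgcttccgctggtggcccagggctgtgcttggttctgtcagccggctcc
Psmd14: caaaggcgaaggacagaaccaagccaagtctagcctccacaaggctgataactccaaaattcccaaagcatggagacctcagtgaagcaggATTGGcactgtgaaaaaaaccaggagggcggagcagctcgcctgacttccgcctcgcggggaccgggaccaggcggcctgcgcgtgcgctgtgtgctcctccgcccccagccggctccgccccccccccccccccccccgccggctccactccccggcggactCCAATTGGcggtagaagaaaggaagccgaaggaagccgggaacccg
The Psmc6 window held 1 match to TGACNNNGC and 0 to CCAAT, the Psmd6 window held 0 of either, and the Psmd14 window held 0 and 3. Neither motif was in all of these windows. Over the 37 member genes with a promoter in the table, 6 held TGACNNNGC (16.2 percent, beside 14 percent of 27025 genes) and 14 held CCAAT (37.8 percent, beside 41.1 percent). The genes with TGACNNNGC were Psmb5, Psmb6, Psmc6, Psmd12, Psmd9 and Psme4.

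Other pairs ran in opposite directions. In HS4, Psmd12 and Psmd6 had r = −0.80 (rho −0.80, n = 75), against 0.011 in F2 and 0.37 in HS-CC. With all arrays the HS4 value was −0.24. The Psmd12 probe used, ILMN_2896805, had r = −0.72 with the other probe of that gene in HS4, so the value holds for that probe only. In HS-CC, Psmc6 and Psmd4, the ubiquitin receptor Rpn10, had r = −0.65 (rho −0.66, n = 87). In F2, Psmb7 and Psmd7, the Rpn8 partner of Psmd14, had r = −0.55 (rho −0.56, n = 73), against 0.27 in HS4 and −0.21 in HS-CC. Probes of a single gene could also disagree. Over 22 pairs of probes of a single gene for F2, 19 for HS4 and 21 for HS-CC, r had medians of 0.24, 0.41 and 0.34, and 3, 6 and 3 pairs were negative. The probes of Psmb10 (r = 0.88, 0.94 and 0.82) and of Psmd6 (0.78, 0.91 and 0.88) followed each other closely, while those of Psmd12 had r = −0.72 in HS4 and probes ILMN_1221340 and ILMN_2836147 of Psmb7 −0.43 in F2.

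Psmb6 varied more between animals than any other member in F2 and HS4. After outlying arrays were left out its SD over the arrays of both lines was 1.14 for F2, 0.75 for HS4 and 0.58 for HS-CC, where only Psmd8 (0.60) was higher. The median SD of members was 0.115, 0.161 and 0.176, beside 0.102, 0.121 and 0.122 over all expressed probes. In F2 the lowest, median and highest levels were 9.27, 11.87 and 13.10 in High, against 9.24, 11.87 and 13.02 in Low. The 73 F2 arrays were cut into bands at their 2 widest gaps away from the ends, a rule that gives 3 bands for any values. The lowest, between 9.24 and 9.69, held 5 High and 10 Low arrays, the next, between 11.5 and 12.1, held 21 High and 13 Low, and the highest, between 12.4 and 12.8, held 9 High and 15 Low. The gap above the lowest band was 1.81, and the gap below the highest band was 0.347. On the arrays labelled HS4, 0 High and 3 Low arrays lay between 9.95 and 10.3, below a gap of 1.98. In HS-CC a gap of 0.76 set 2 High and 3 Low arrays apart from the other 82. The bands were read from the values, and no test of the lines was made on them.

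**Figure D5:**
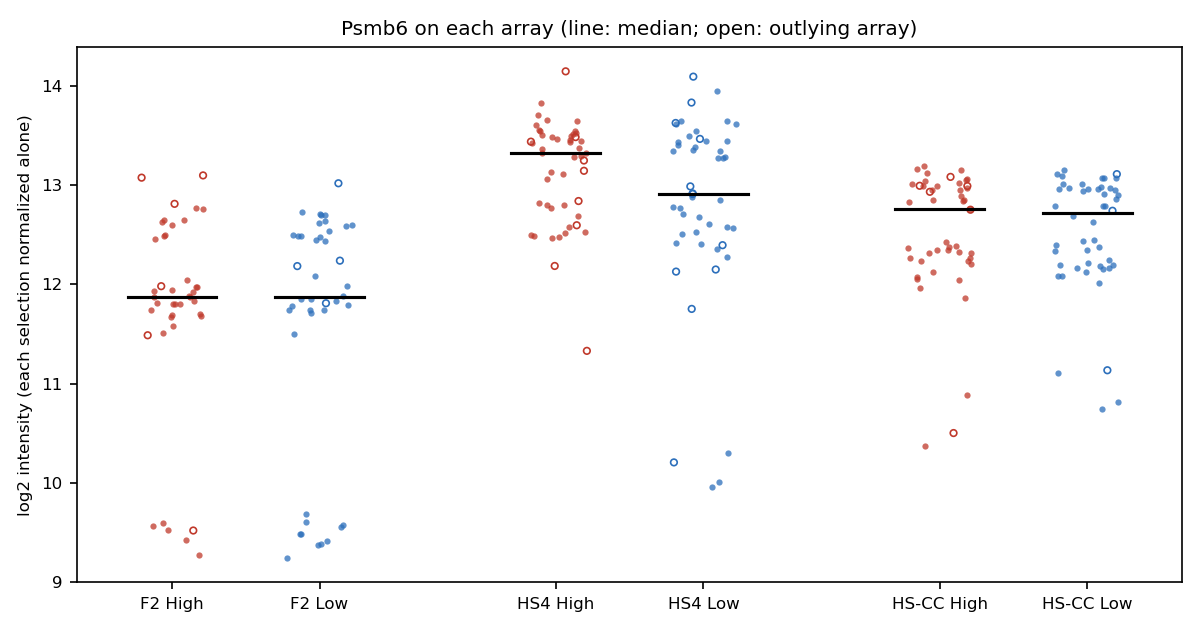
Psmb6 (log2 intensity) on each array of F2, HS4 and HS-CC, High in red left of Low in blue, with lines at the medians and open circles for outlying arrays. F2 arrays form bands near the bottom (9.24 to 9.69), middle (11.5 to 12.1) and top (12.4 to 12.8) in both lines.

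The genes that varied most closely with Psmb6 lay on its own chromosome in F2 and HS-CC, but not in HS4, where 4 of 10 did. In F2 all 10 of its strongest correlates were on chromosome 11, led by Pfn1 (r = −0.80, rho −0.84) and Znhit3 (r = 0.80, rho 0.64, n = 73). In HS-CC all 10 were again on chromosome 11, led by Pafah1b1 (r = 0.79, rho 0.63) and Cfap52 (r = −0.75, rho −0.58, n = 87). Among all genes, 3.41 percent for F2, 1.23 percent for HS4 and 4.32 percent for HS-CC had 5 or more of their 10 strongest correlates on their own chromosome. Of the members, Psmb5 (10, chromosome 14) and Psmb6 did so in F2, and no member did in HS4. In HS-CC they were Psmb6 (10), Psmb1 (9), Psmd9 (9), Psmb7 (8), Psmd8 (7), Psmd5 (6), Psmd7 (6) and Psma3 (5). These include Psma3 and Psmb7, which were called in HS-CC, and Psmd8, whose leading correlate there was Ppp1r14a on chromosome 7 (r = 0.72, rho 0.67). In F2, where Psmd8 was called, its strongest correlates, Mgll (r = 0.61) and Arhgap1 (r = 0.60), lay on chromosomes 6 and 2. For Psmc5, the other gene called in HS-CC, the correlates were those of its uncalled probe ILMN_1251877, and 3 of 10 lay on its chromosome. Psmb7 and Psmd5, both on chromosome 2, correlated at r = 0.34 for F2, 0.54 for HS4 and 0.58 for HS-CC. The promoter of Psmb6, at chr11:70525107-70525406 on the plus strand of GRCm38.p6, is shown as that of the member with the widest spread, marked as above.
Psmb6: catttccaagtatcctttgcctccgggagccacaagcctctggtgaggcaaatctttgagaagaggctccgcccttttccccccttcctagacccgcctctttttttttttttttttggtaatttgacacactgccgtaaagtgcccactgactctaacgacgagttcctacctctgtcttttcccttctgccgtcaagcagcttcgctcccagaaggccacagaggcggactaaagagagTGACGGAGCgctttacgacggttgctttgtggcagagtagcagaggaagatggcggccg
It held 1 match to TGACNNNGC and 0 to CCAAT. No sequence difference between the founder strains was analysed here.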

How the data were processed

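Striatal RNA of 275 mice was measured on 1 Illumina mouse bead array each. The deposited values were made by the authors with lumi, with quantile normalization within each selection, and are treated as log2. Whether the transformation was plain log2 or variance-stabilising, and the software version, are not given in the sources used here. The number of arrays limits the precision. Each of the 275 columns was assigned to a line by its label, and gene symbols came from the platform annotation (1719 probes without one, 0 with several). A probe was expressed when above the 95th percentile of 1341 receptor probes on at least 25 percent of the arrays of a selection. High minus Low was tested with limma 3.58.1 (R 4.3.3) in each selection with all arrays and Benjamini-Hochberg adjustment over all expressed probes at 0.1. Differences between selections were tested in a single fit after quantile normalization across all arrays. Correlations (Pearson) used the probe with the highest mean of each gene, after subtracting line means and leaving out, repeatedly, arrays whose mean correlation with the others lay more than 2.5 SD below the average. Tables were made with pandas 2.3.3, numpy 2.4.6 and scipy 1.17.1 under Python 3.11.15, and figures with matplotlib 3.10.9. The limma step was tested before use on simulated independent noise with each probe's robust spread. That noise held no outlying arrays, so the test does not show what share of true differences was found on the real arrays. Promoters came from RefSeq (GRCm38.p6), and Psmg2, Psmb1, Psmb2, Psmb7, Psmc3 and Psmd7 had none there.

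Named with values were the called probes and other probes of their genes, the probes of smallest p up to 5 a selection, the catalytic subunits Psmb5, Psmb6 and Psmb7, Psmb10, Psme1, Psme2 and Psme3, the 3 genes of highest and of lowest mean correlation, and the called or smallest-p genes of the pathway lists. Psmb6 and Psmd8 bands, the pairs and the genes correlated with them were chosen after their values were seen. The members and lists were chosen with earlier results of these data known. Alternatives covered the probes tested, the expression filter, the false discovery rate, outlying arrays, array weights, normalization, an intensity trend, sex, family, the probe per gene and the kind of correlation.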

Additional observations from a re-analysis of the deposited data

Results flagged for a closer look

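Results are given here because the High minus Low difference itself differed between selections, in a limma fit of all selections with the outlying arrays left out repeatedly. With all arrays kept, 0 members passed that test in limma, and 5 for F2 minus HS-CC and 7 for HS4 minus HS-CC had an unadjusted p under 0.05. Psmb7 (ILMN_1221340) had a High minus Low of 0.019 in F2 and −0.25 in HS-CC, a difference of 0.268 (adjusted p = 0.015). On the arrays labelled HS4 the same probe had 0.029, which differed from HS-CC by 0.278 (adjusted p = 0.015). With all arrays the probe had 0.012 in F2, 0.20 on the arrays labelled HS4 and −0.23 in HS-CC, and the differences from HS-CC were 0.24 (adjusted p = 1) and 0.42 (adjusted p = 0.40). Psmd8 had 0.11 in F2 and −0.31 in HS-CC, a difference of 0.427 (adjusted p = 0.059), or 0.40 (adjusted p = 0.44) with all arrays. Psmc5 had −0.027 on the arrays labelled HS4 and 0.14 in HS-CC for probe ILMN_1220632, a difference of −0.169 (adjusted p = 0.072). With all arrays the HS4 value turned to 0.12, beside 0.12 in HS-CC, a difference of −0.0045 (adjusted p = 0.998). Its probe ILMN_1251877 had −0.033 and 0.22 there, a difference of −0.248 (adjusted p = 0.082), and with all arrays −0.11 and 0.16, a difference of −0.27 (adjusted p = 0.24). These are 2 of the 57 members for F2 minus HS-CC and 3 of 57 for HS4 minus HS-CC, beside 4.27 and 2.14 percent of all probes.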

How the results depend on the processing

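The alternatives gave 152 values for 18 named probes and selections. Of these values, 144 kept their direction and their side of the threshold of 0.1, 5 came past it and 3 fell short of it. A stricter false discovery rate is not part of this tally. The 3 were Psmc5 (ILMN_1220632) in HS-CC with every probe tested (0.12), an intensity trend (0.12) and measured sex as a term (0.12). None of the 152 values changed sign, but they do not cover every difference named above. Psmc5 (ILMN_1220632) on the arrays labelled HS4 is outside them, and its sign did change. In the single fit of all selections it had 0.12 with all arrays and −0.027 with outlying arrays left out repeatedly. In F2, 0 members were called among the variable probes alone, which leave out Psmd8, and 2 with array weights, where Psme1 was added (adjusted p = 0.0999 in limma). In HS4, 1 member, Psmd11, was called with outlying arrays left out once (adjusted p = 0.081), repeatedly (0.00035) or with array weights (0.00011). In HS-CC, 1 was called at a false discovery rate of 0.05, which Psmb7 and Psmc5 missed, and 1 among the variable probes. Leaving outlying arrays out repeatedly gave 6, where Psmd5, Psmb2 (ILMN_2949632) and Psmc5 (ILMN_1251877) were added. Array weights gave 5, where Psmb5 and Psmd5 were added. With outlying arrays left out repeatedly, 1.38 percent of all probes were called for F2, 0.651 percent for HS4 and 4.29 percent for HS-CC. The shares for the other settings are not given here, so their counts cannot be weighed against all probes. Between the selections, leaving outlying arrays out repeatedly gave 2 calls for F2 minus HS-CC and 3 for HS4 minus HS-CC. Of all probes 4.27 and 2.14 percent were then called. With all arrays there were 0 calls, beside 1.04 and 0.829 percent of all probes. The median correlation of members was 0.12385 in HS4 with all arrays and 0.00809 with outlying arrays left out once, and 0.04765 in HS-CC with all arrays. Over pairs of all expressed genes the medians at these settings were 0.0484, 0.0186 and 0.0225. The cause was not tested. The other settings kept the counts within 1.5 times and the medians within their error. No paired analysis was possible because no animal number occurs in both the High and the Low line of a selection.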
